A study of Mus musculus with 12 samples.

Results

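The 34 genes described here mark endothelial cells, the cells that line blood and lymphatic vessels. They were taken by gene symbol from the probe sets that the platform annotation assigned to 1 gene, and all 34 were measured among 19937 genes, each by 1 probe set. The samples were Lewis lung carcinoma tissue, labelled as resected from the lungs of female C57BL/6 mice, with 3 arrays in each of 4 groups. The groups were RelA/p65 deficient hosts exposed to smoke, RelA/p65 deficient hosts exposed to air, wild type hosts exposed to smoke and wild type hosts exposed to air. The tumour, which is grown from a transplantable line of mouse cells, was shared by every group, and the groups differed in the genotype and exposure of the host. RelA/p65 is one of the proteins that form NF-kB transcription factors. The series title places the deficiency in myeloid cells, while the labels name neither a Cre driver nor a deleted exon, and they give no age and no length of exposure. Whether the 3 arrays of a group are 3 animals is not said, and the p-values therefore reflect the spread among these arrays alone, which may be technical.

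Endothelial cells join into a continuous lining through adhesion molecules and tight junctions, and they keep their identity through a small set of transcription factors of the ETS and SOX families. Vessels of different kinds add their own genes. The capillaries of the lung, which lie against the thin epithelium of the alveoli, carry surface enzymes and receptors for vasoactive peptides. Arteries carry gap junction proteins and an enzyme that makes nitric oxide. Veins and tumour vessels carry adhesion and permeability proteins, and lymphatic vessels are set apart by a transcription factor of their own. The members were accordingly read in 7 classes: 11 pan-endothelial surface and matrix genes, 2 receptors of the TGF-beta family, 5 transcription factors, 5 lung capillary genes, 4 arterial genes, 4 venous and tumour vessel genes and 3 lymphatic genes.

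The deposited values are log2 intensities. Array medians over all genes lay between 7.26 and 7.51, and arrays of the same group correlated at 0.990 to 0.998 across genes. Rela, the gene that encodes RelA/p65, averaged 9.31 ± 0.05 in deficient and 9.08 ± 0.10 in wild type hosts under smoke, and 9.42 ± 0.04 in deficient and 9.22 ± 0.06 in wild type hosts in air (log2, SD, n = 3 each). Arrays with the deficient label thus had no less Rela, which rose there by 0.23 under smoke (adjusted p = 0.00873) and by 0.20 in air (adjusted p = 0.0285). Whether its probe set lies in a deleted part is not known. The label was thus not borne out by this gene in bulk tissue, and every direction given below for deficient hosts rests on the arrays labelled so. In bulk samples, fewer endothelial cells and less RNA per endothelial cell cannot be told apart. Genes of normal lung were abundant in the tissue: the mean log2 level of 15 alveolar type I cell genes was 10.95 to 11.09 in deficient smoke arrays, 11.01 to 11.08 in deficient air arrays, 8.04 to 8.14 in wild type smoke arrays and 10.16 to 10.32 in wild type air arrays.

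Across the groups the endothelial genes followed a common order. Wild type hosts under smoke had the lowest group mean for 31 of the 34 genes, and the highest mean belonged to deficient hosts under smoke for 15 and to deficient hosts in air for 18. Every one of the 6 deficient arrays lay above every one of the 6 wild type arrays for 31 genes. For 29 genes the 3 wild type smoke arrays lay below the other 9 arrays. None of these counts was made over all genes. Only looser splits between pairs of groups were counted there, and their shares are no baseline for these orders. Deficient arrays lay above wild type arrays for 25.6% of all genes in air and for 23.6% under smoke. Wild type smoke arrays lay below wild type air arrays for 16.2% of all genes. The mean log2 level over all 34 genes was 9.96 to 10.12 in deficient smoke arrays, 10.01 to 10.06 in deficient air arrays, 8.01 to 8.06 in wild type smoke arrays and 9.10 to 9.26 in wild type air arrays. The transcription factors Tal1 and Prox1 and the nitric oxide synthase Nos3 passed the test in no comparison as deposited. All calls below are from limma's moderated test over the 19937 genes with Benjamini-Hochberg adjusted p under 0.05.

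**Figure D1:**
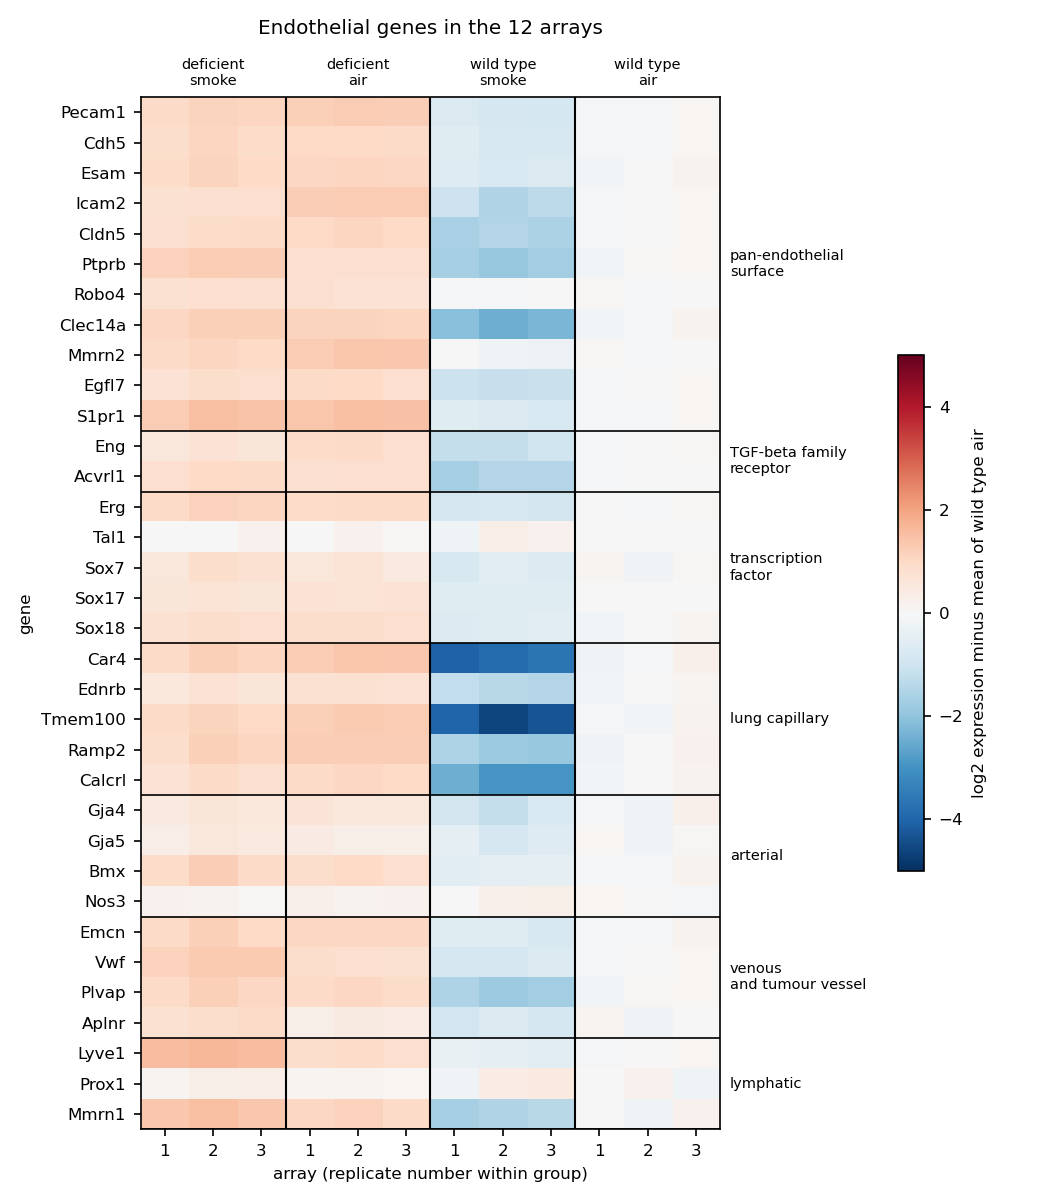
Heat map of the 34 endothelial genes (rows, ordered by class) in the 12 arrays (columns, with deficient smoke first, then deficient air, wild type smoke and wild type air). Colour is each gene's log2 level minus its own mean over the wild type air arrays, so that colours compare arrays within a gene. The 3 wild type smoke arrays are the lowest for 29 of the genes, and Robo4, Mmrn2, Tal1, Nos3 and Prox1 show no such step.

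Most of these genes were lower with smoke in wild type hosts. There, 29 of the 34 genes fell and none rose, where 14% of all genes fell, 15% rose and 29% were called in either direction. The median log2 difference of the 34 genes was -0.83, against 0.08 over all genes. The smoke arrays lay below the air arrays for the same count of 29 genes, where 16.2% of all genes separated that way, 20.8% separated the other way and 36.9% separated in either direction. The fall was at least 2-fold in 14 genes and at least 4-fold in Tmem100, Car4, Calcrl and Clec14a. Mmrn1 is among the 14, with wild type smoke readings under 6 on the log2 scale. Robo4, Mmrn2, Tal1, Nos3 and Prox1 were the 5 genes not called. The 29 calls held under all 18 alternative settings. Some of these cannot move the differences themselves: averaged probe sets, the replicate block, the 6 arrays alone and leaving out a deficient array. For Bmx and Mmrn1 the intensity filter is no check, as they passed it only through groups where they were higher. Among all called genes the share that was higher with smoke was 51.8% as deposited and 77.1% after centring each array on its median.

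In deficient hosts few of the genes changed with smoke. Lyve1, Vwf, Aplnr and Ptprb rose and Icam2 fell, where 0.692% of all genes rose, 1.72% fell and 2.41% were called in either direction. The median log2 difference of the 34 genes was -0.03, against -0.00 over all genes, and no gene moved by 2-fold. Smoke and air arrays separated with smoke higher for 6 genes and with smoke lower for 10, where the shares of all genes were 8.97% and 13.7%, or 22.7% in either direction. With the 6 deficient arrays alone in the fit, 8 of the 34 genes were called, and 2 to 7 were called when 1 array was left out. Only Lyve1 and Vwf were called under all 18 alternatives, and the arrays that decide the other 3 calls are named with those genes. Median centring put the share of higher calls among all called genes at 36.1%, against 28.7% as deposited.

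The difference between these smoke effects was tested as an interaction. The smoke effect was higher in deficient than in wild type hosts for 29 of the 34 genes and lower for none, where 8.89% of all genes differed upward, 5.7% differed downward and 14.6% differed in either direction. The median of this difference was 0.88 on the log2 scale, against -0.08 over all genes. All 29 genes that fell with smoke in wild type hosts were called for the difference, which is computed from the same wild type arrays. The overlap is therefore no separate support for the fall. The share of upward calls among all called genes was 60.9% as deposited and 41.4% after median centring, and after it the 29 genes remained called upward while Nos3 was called downward (-0.34, adjusted p = 0.0455).

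**Figure D2:**
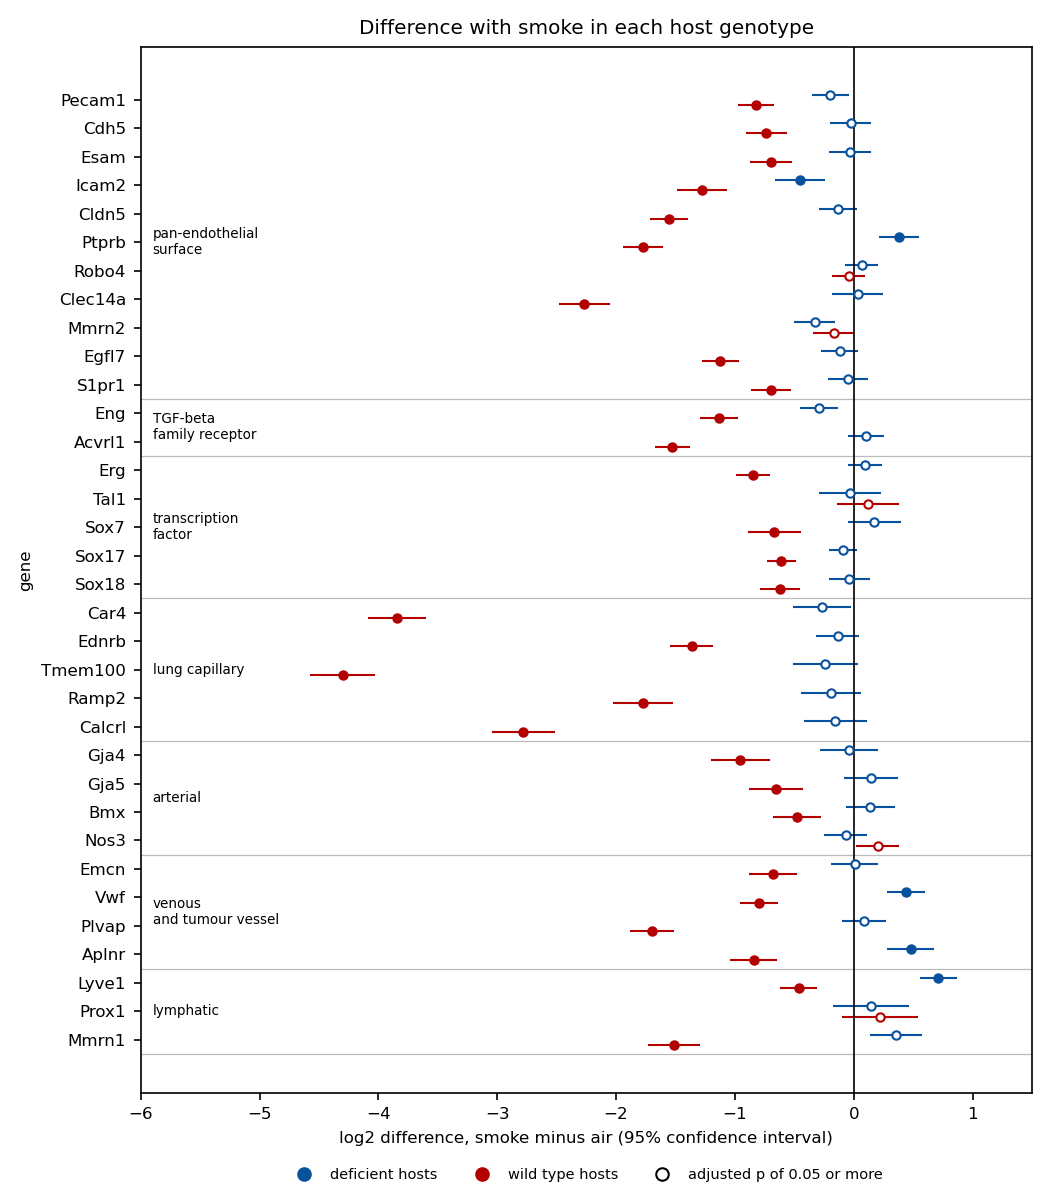
Log2 difference of smoke against air for each of the 34 genes, in deficient hosts and in wild type hosts, with 95% confidence intervals from the fit. Open points were not called. The effects in deficient hosts lie between -0.45 for Icam2 and 0.71 for Lyve1, whereas those in wild type hosts reach -4.30 for Tmem100.

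Deficient hosts carried more of these transcripts than wild type hosts in both exposures. In air, 31 of the 34 genes were higher in deficient hosts and none was lower, where 20.5% of all genes were higher, 18% were lower and 38.5% were called in either direction. The median log2 difference was 0.92, against -0.03 over all genes, and 12 genes were at least 2-fold higher. The arrays separated with deficient hosts higher for 32 genes, where 25.6% of all genes separated so, 26.3% separated the other way and 51.9% separated in either direction. Under smoke, 31 genes were higher in deficient hosts and none was lower as deposited, where 22.7% of all genes were higher, 37% were lower and 59.6% were called in either direction. The median there was 1.88, against -0.14 over all genes, 30 genes were at least 2-fold higher and 14 were at least 4-fold higher. Bmx and Mmrn1 are among the 30 and Mmrn1 is among the 14, with wild type smoke readings under 6 on the log2 scale. The arrays separated with deficient hosts higher for 31 genes, where 23.6% of all genes separated so, 37.6% separated the other way and 61.3% separated in either direction. These comparisons share arrays with the smoke comparisons, so their values stand side by side and do not support each other. Median centring moved the median of all genes under smoke to -0.28, and the share of higher calls among all called genes became 22.9%, against 38% as deposited. In air that share was 39.6% after centring and 53.2% as deposited.

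The lung capillary genes had the lowest class median with smoke in wild type hosts. None of the 5 was called with smoke in deficient hosts, where their median log2 difference was -0.19, and all 5 fell in wild type hosts, with a median of -2.78. Tmem100 encodes a membrane protein that endothelial cells make downstream of BMP signalling. Tmem100 had log2 levels of 12.28, 12.44 and 12.32 in deficient smoke arrays and 12.54, 12.63 and 12.58 in deficient air arrays, against 7.34, 6.74 and 7.02 in wild type smoke arrays and 11.26, 11.21 and 11.53 in wild type air arrays. Car4 encodes a carbonic anhydrase anchored on the luminal face of lung capillaries. For Car4 the deficient arrays gave log2 levels of 11.02, 11.25 and 11.15 under smoke and 11.35, 11.45 and 11.42 in air, and the wild type arrays gave 6.03, 6.24 and 6.42 under smoke and 9.91, 9.99 and 10.31 in air. Both genes had 3 wild type smoke arrays far below the other 9 arrays, and their deficient smoke arrays lay slightly below the deficient air arrays without passing the test.

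Tmem100 was 19.7-fold lower with smoke in wild type hosts (log2 difference -4.30 ± 0.13, adjusted p = 3.06e-11). Car4 was 14.3-fold lower (log2 difference -3.84 ± 0.11, adjusted p = 3.06e-11). Deficient hosts stood 39.7-fold above wild type hosts for Tmem100 under smoke and 2.38-fold above them in air. For Car4 the corresponding folds were 30.1 under smoke and 2.53 in air. The wild type smoke readings of Car4 were 6.03 to 6.42, close to 6, the intensity used below as a filter. The 14.3-fold and 30.1-fold values therefore rest on readings near that limit. With smoke in deficient hosts the log2 difference was -0.24 for Tmem100 (95% interval -0.51 to 0.03) and -0.27 for Car4 (95% interval -0.51 to -0.02).

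Calcrl and Ramp2 encode the receptor and the accessory protein that together bind the vasodilator peptide adrenomedullin. Log2 levels of Calcrl were 12.48, 12.70 and 12.55 under smoke and 12.70, 12.76 and 12.74 in air in deficient hosts, against 9.29, 8.80 and 8.80 under smoke and 11.60, 11.71 and 11.91 in air in wild type hosts. Ramp2 had log2 levels of 11.33, 11.62 and 11.51 in deficient smoke arrays and 11.69, 11.68 and 11.67 in deficient air arrays, against 8.88, 8.57 and 8.55 in wild type smoke arrays and 10.23, 10.43 and 10.67 in wild type air arrays. Ednrb encodes the endothelin B receptor, which clears endothelin from blood in the lung. For Ednrb the deficient arrays gave log2 levels of 9.58, 9.76 and 9.68 under smoke and 9.84, 9.82 and 9.78 in air, and the wild type arrays gave 7.81, 7.68 and 7.59 under smoke and 8.90, 9.08 and 9.18 in air. For all 3 genes each deficient array exceeded each wild type array, and the wild type smoke arrays were the lowest of the 12. The log2 difference of smoke against air in wild type hosts was -2.78 ± 0.12, adjusted p = 1.27e-09, for Calcrl. It was -1.77 ± 0.12, adjusted p = 7.18e-08, for Ramp2, and -1.36 ± 0.08, adjusted p = 3.75e-08, for Ednrb. In deficient hosts these differences were -0.16 (95% interval -0.42 to 0.11) for Calcrl, -0.19 (95% interval -0.44 to 0.06) for Ramp2 and -0.14 (95% interval -0.32 to 0.04) for Ednrb.

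**Figure D3:**
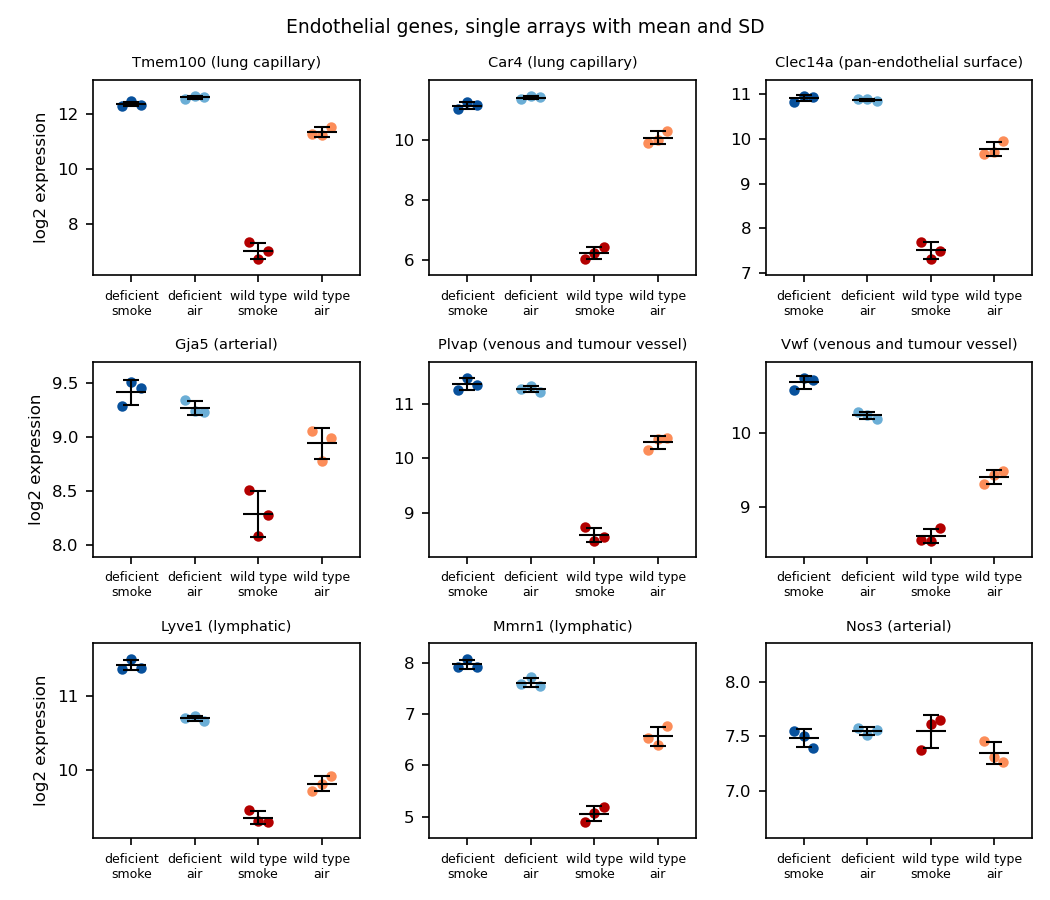
Log2 levels of single arrays (points) with the group mean and SD (bars, n = 3) for Tmem100, Car4, Clec14a, Gja5, Plvap, Vwf, Lyve1, Mmrn1 and Nos3, with deficient smoke at the left of each panel, then deficient air, wild type smoke and wild type air. Tmem100 and Car4 are far lower in the wild type smoke arrays than in the other 9, the deficient smoke arrays of Vwf, Lyve1 and Mmrn1 lie above their deficient air arrays, and the Nos3 panel spans a narrow range.

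The pan-endothelial genes encode parts that most vessel linings share. In wild type hosts 9 of the 11 fell with smoke, with a class median of -0.82. Clec14a encodes a C-type lectin receptor of the endothelial surface. Log2 levels of Clec14a were 10.83, 10.95 and 10.95 under smoke and 10.88, 10.88 and 10.85 in air in deficient hosts, against 7.70, 7.31 and 7.50 under smoke and 9.65, 9.71 and 9.96 in air in wild type hosts. Ptprb encodes VE-PTP, a phosphatase that acts on VE-cadherin and the angiopoietin receptor. Ptprb had log2 levels of 11.57, 11.69 and 11.67 in deficient smoke arrays and 11.25, 11.27 and 11.26 in deficient air arrays, against 8.76, 8.54 and 8.69 in wild type smoke arrays and 10.29, 10.47 and 10.53 in wild type air arrays. Both had their 3 wild type smoke arrays below all others. Clec14a was 4.81-fold lower with smoke in wild type hosts (log2 difference -2.27 ± 0.10, adjusted p = 1.27e-09), and Ptprb was 3.41-fold lower (log2 difference -1.77 ± 0.08, adjusted p = 1.34e-09). With smoke in deficient hosts Ptprb rose by 0.38 ± 0.08 (adjusted p = 0.0196), which was no longer called when any deficient air array, or replicate 2 or 3 of deficient smoke, was left out. Clec14a differed there by 0.03 (95% interval -0.18 to 0.25).

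Cldn5 encodes the tight junction protein claudin 5. For Cldn5 the deficient arrays gave log2 levels of 11.82, 11.92 and 11.96 under smoke and 12.01, 12.09 and 12.001 in air, and the wild type arrays gave 9.39, 9.55 and 9.44 under smoke and 10.90, 11.02 and 11.12 in air. Egfl7 encodes a protein that endothelial cells secrete into the matrix around them. Log2 levels of Egfl7 were 10.75, 10.90 and 10.86 under smoke and 10.97, 11.01 and 10.87 in air in deficient hosts, against 8.95, 8.87 and 8.90 under smoke and 9.93, 10.02 and 10.14 in air in wild type hosts. Both were highest in deficient hosts and lowest in wild type hosts under smoke, with no overlap between genotypes. The log2 difference of smoke against air in wild type hosts was -1.55 ± 0.07, adjusted p = 2.45e-09, for Cldn5. For Egfl7 it was -1.12 ± 0.07, adjusted p = 6.22e-08.

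Pecam1 and Cdh5, which encode the junctional adhesion proteins CD31 and VE-cadherin, fell by smaller steps in wild type hosts. Pecam1 averaged 11.46 ± 0.08 under smoke and 11.65 ± 0.03 in air in deficient hosts, and 9.60 ± 0.08 under smoke and 10.42 ± 0.09 in air in wild type hosts (log2, SD, n = 3 each). Cdh5 averaged 11.54 ± 0.11 under smoke and 11.56 ± 0.01 in air in deficient hosts, and 9.84 ± 0.13 under smoke and 10.58 ± 0.08 in air in wild type hosts. The wild type differences were -0.82 ± 0.07, adjusted p = 1.19e-06, for Pecam1, and -0.74 ± 0.08, adjusted p = 1.09e-05, for Cdh5. Esam, another junctional adhesion protein, and S1pr1, the receptor through which sphingosine-1-phosphate tightens the barrier, had log2 differences of -0.70 and -0.70 there, both called. Icam2, an adhesion ligand for leukocytes that platelets and leukocytes also carry, fell by 1.28 ± 0.10 with smoke in wild type hosts. Icam2 also fell by 0.45 ± 0.10 with smoke in deficient hosts (adjusted p = 0.0264), and that call was lost with quantile normalization, with median centring and without any one of the 6 deficient arrays. Of 10 pan-leukocyte genes 4 were called lower with smoke in deficient hosts, and their part in Icam2 was not tested.

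Robo4 and Mmrn2 were the pan-endothelial genes that did not pass the test with smoke in wild type hosts. Robo4, a guidance receptor that stabilises vessels, averaged 8.20 ± 0.05 under smoke and 8.24 ± 0.07 in air in wild type hosts (log2, SD, n = 3 each). Its difference was -0.04 (95% interval -0.18 to 0.09). Mmrn2, a matrix ligand of Clec14a, averaged 8.28 ± 0.16 under smoke and 8.45 ± 0.05 in air, a difference of -0.17 (95% interval -0.34 to 0.00) that was called without wild type smoke replicate 1. Mmrn2 differed by -0.33 with smoke in deficient hosts (adjusted p = 0.0521), and 5 of the 18 alternatives called it lower. Both were nevertheless higher in deficient than in wild type hosts. In air Robo4 was higher by 0.74 ± 0.06 and Mmrn2 by 1.33 ± 0.08, and under smoke by 0.85 ± 0.06 and 1.18 ± 0.08. S1pr1 had the highest genotype difference of the 34 genes in air, 2.74-fold (log2 difference 1.45 ± 0.08, adjusted p = 4.03e-08). Lymphocytes also express S1pr1, and the pan-leukocyte genes moved the same way between genotypes. In air 10 of 10 were called higher in deficient hosts, with a median of 1.29, and under smoke 8 of 10 were, with a median of 0.86. Their mean was 9.62 to 9.74 in deficient smoke arrays, 9.99 to 10.01 in deficient air arrays, 8.82 to 8.93 in wild type smoke arrays and 8.53 to 8.84 in wild type air arrays. Their part in the genotype differences of the endothelial genes was not tested.

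Promoter sequences are shown for 4 members from different classes, because ETS factors such as Erg bind many endothelial promoters. They were picked from the 7 members whose entries hold the ETS letters given below. RefSeq promoter entries on GRCm38.p6, covering 250 bases before to 50 after the start, matched 16 of the 34 members, with 22 entries in all. The letters AGGAAG, a core of many ETS sites, or their reverse complement CTTCCT, occurred in 8 of the 22 entries. That is 36.4% of them, against 35.4% of the 32851 promoters searched. The 250 bases upstream of the start are printed in the direction of the gene, with these letters in capitals. Calcrl lies on the minus strand at chr2:84425267-84425516, Gja5 on the plus strand at chr3:97032152-97032401, Emcn on the plus strand at chr3:137340828-137341077 and Robo4 on the plus strand at chr9:37401722-37401971.
Calcrl: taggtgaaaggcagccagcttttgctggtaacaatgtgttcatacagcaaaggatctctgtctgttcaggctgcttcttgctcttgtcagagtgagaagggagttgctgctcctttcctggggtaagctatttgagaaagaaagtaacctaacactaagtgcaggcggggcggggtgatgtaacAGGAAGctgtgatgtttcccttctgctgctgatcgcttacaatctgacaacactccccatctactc
Gja5: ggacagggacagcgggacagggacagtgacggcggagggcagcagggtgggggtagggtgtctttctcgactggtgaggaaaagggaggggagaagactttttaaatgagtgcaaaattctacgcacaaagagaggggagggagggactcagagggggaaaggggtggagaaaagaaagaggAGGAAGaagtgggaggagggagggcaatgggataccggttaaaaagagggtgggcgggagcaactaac
Emcn: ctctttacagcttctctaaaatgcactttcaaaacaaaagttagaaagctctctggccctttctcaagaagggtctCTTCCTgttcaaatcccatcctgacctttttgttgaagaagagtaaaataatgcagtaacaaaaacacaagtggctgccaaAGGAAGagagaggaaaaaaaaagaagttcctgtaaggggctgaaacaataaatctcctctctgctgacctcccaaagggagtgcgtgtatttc
Robo4: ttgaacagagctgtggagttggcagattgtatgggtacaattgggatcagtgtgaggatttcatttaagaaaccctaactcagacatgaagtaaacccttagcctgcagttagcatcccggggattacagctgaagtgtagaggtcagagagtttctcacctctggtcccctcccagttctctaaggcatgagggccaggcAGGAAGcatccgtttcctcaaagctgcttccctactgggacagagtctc
Calcrl, Gja5 and Emcn fell with smoke in wild type hosts and Robo4 was not called. On either strand, the SOX letters ACAATG occurred in 13.6% of the member entries and 12.6% of all. For the GATA letters AGATAA the shares were 9.09% and 11.2%, and for the KLF letters CCACCC they were 27.3% and 31.5%. These counts describe letters in a window and not binding, and a part of such sites in the shared movement of the members was not tested.

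Eng and Acvrl1 encode endoglin and ALK1, the co-receptor and the receptor through which circulating BMP ligands act on endothelium. Eng had log2 levels of 11.37, 11.53 and 11.42 in deficient smoke arrays and 11.74, 11.78 and 11.67 in deficient air arrays, against 9.62, 9.63 and 9.82 in wild type smoke arrays and 10.75, 10.82 and 10.89 in wild type air arrays. For Acvrl1 the deficient arrays gave log2 levels of 11.34, 11.48 and 11.46 under smoke and 11.30, 11.35 and 11.33 in air, and the wild type arrays gave 8.84, 9.03 and 9.02 under smoke and 10.45, 10.50 and 10.52 in air. Both fell with smoke in wild type hosts. The log2 difference was -1.13 ± 0.07, adjusted p = 7.63e-08, for Eng, and -1.53 ± 0.07, adjusted p = 1.54e-09, for Acvrl1. In deficient hosts Acvrl1 differed with smoke by 0.10 (95% interval -0.04 to 0.25). Eng was at -0.29 there, with arrays that did not overlap and an adjusted p of 0.0673. It was called lower with the intensity filter (adjusted p = 0.0499), with the 6 deficient arrays alone (adjusted p = 0.0265) and without wild type smoke replicate 1 or 3. Under smoke, deficient hosts were 5.53-fold above wild type hosts for Acvrl1 and 3.37-fold above them for Eng.

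Of the 5 transcription factors, none was called with smoke in deficient hosts and 4 fell in wild type hosts, where the class median was -0.62. Erg is the ETS factor that maintains endothelial identity. Log2 levels of Erg were 9.78, 9.97 and 9.91 under smoke and 9.77, 9.81 and 9.80 in air in deficient hosts, against 7.98, 8.06 and 7.94 under smoke and 8.84, 8.78 and 8.89 in air in wild type hosts. The SOX factors Sox7, Sox17 and Sox18 act together in vessel formation. Sox7 had log2 levels of 8.62, 8.91 and 8.80 in deficient smoke arrays and 8.60, 8.70 and 8.51 in deficient air arrays, against 7.22, 7.52 and 7.37 in wild type smoke arrays and 8.15, 7.85 and 8.10 in wild type air arrays. For Sox17 the deficient arrays gave log2 levels of 8.72, 8.79 and 8.71 under smoke and 8.86, 8.80 and 8.83 in air, and the wild type arrays gave 7.52, 7.51 and 7.49 under smoke and 8.11, 8.12 and 8.11 in air. Log2 levels of Sox18 were 9.58, 9.70 and 9.67 under smoke and 9.69, 9.70 and 9.66 in air in deficient hosts, against 8.13, 8.22 and 8.27 under smoke and 8.68, 8.82 and 8.98 in air in wild type hosts. These genes shared the ordering of the surface genes, with deficient arrays on top and wild type smoke arrays at the bottom. The wild type smoke differences were -0.85 ± 0.07, adjusted p = 5.14e-07, for Erg, -0.61 ± 0.05, adjusted p = 2.06e-06, for Sox17, -0.62 ± 0.08, adjusted p = 4.69e-05, for Sox18, and -0.67 ± 0.10, adjusted p = 0.00032, for Sox7. Tal1, a basic helix-loop-helix factor of blood and endothelial progenitors that erythroid cells and megakaryocytes also express, was called in no comparison as deposited. Its log2 levels ran from 7.37 to 7.91 over the 12 arrays, with overlap between the groups in all 4 comparisons, and its smoke difference in wild type hosts was 0.12 (95% interval -0.14 to 0.38). Without wild type smoke replicate 1, Tal1 was called higher with smoke, at 0.28 (adjusted p = 0.0254), and lower in deficient hosts under smoke, at -0.22 (adjusted p = 0.0465).

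Of the 4 arterial genes, none was called with smoke in deficient hosts and 3 fell in wild type hosts, with a class median of -0.56. Gja4 and Gja5 encode connexins of the gap junctions between arterial endothelial cells. Gja4 had log2 levels of 8.89, 8.98 and 8.91 in deficient smoke arrays and 9.03, 8.91 and 8.97 in deficient air arrays, against 7.46, 7.21 and 7.63 in wild type smoke arrays and 8.31, 8.22 and 8.63 in wild type air arrays. For Gja5 the deficient arrays gave log2 levels of 9.28, 9.50 and 9.45 under smoke and 9.34, 9.23 and 9.23 in air, and the wild type arrays gave 8.51, 8.09 and 8.28 under smoke and 9.06, 8.78 and 8.99 in air. In both genes the wild type smoke arrays were the lowest and the deficient smoke and air arrays overlapped. The smoke difference in wild type hosts was -0.95 ± 0.11, adjusted p = 2.76e-05, for Gja4, and -0.65 ± 0.11, adjusted p = 0.000441, for Gja5. Gja5 had the smallest genotype difference in air that was called, 0.32 ± 0.11, adjusted p = 0.0257. Median centring ended that call (0.25, adjusted p = 0.0903), as did leaving out replicate 2 of wild type air or replicate 1 or 2 of deficient air.

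Bmx encodes a Tec family kinase of arterial endothelium. Log2 levels of Bmx were 6.70, 7.01 and 6.71 under smoke and 6.63, 6.77 and 6.60 in air in deficient hosts, against 5.25, 5.28 and 5.33 under smoke and 5.66, 5.72 and 5.92 in air in wild type hosts. Only its 6 deficient arrays read at least 6 on the log2 scale, so the difference of -0.48 ± 0.09 with smoke in wild type hosts (adjusted p = 0.00207) was between low intensities. Nos3 encodes the endothelial nitric oxide synthase. Nos3 had log2 levels of 7.55, 7.50 and 7.39 in deficient smoke arrays and 7.58, 7.51 and 7.56 in deficient air arrays, against 7.37, 7.62 and 7.65 in wild type smoke arrays and 7.46, 7.31 and 7.27 in wild type air arrays. Its smoke and air arrays overlapped within each genotype, and in air its deficient arrays lay above its wild type arrays without passing the test. The wild type smoke difference of Nos3 was 0.20 (95% interval 0.02 to 0.38, adjusted p = 0.0858), and it was called higher with quantile normalization (0.30, adjusted p = 0.00852), with median centring and without wild type smoke replicate 1. Under smoke Nos3 was called lower in deficient than in wild type hosts with quantile normalization (-0.22, adjusted p = 0.0222) and with median centring (-0.21, adjusted p = 0.0242). In air it was called higher in deficient hosts with the 6 arrays alone (adjusted p = 0.0381) and without replicate 1 of wild type air or of wild type smoke. Its smoke effect was also called lower in deficient hosts with quantile normalization and without wild type smoke replicate 1.

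All 4 venous and tumour vessel genes fell with smoke in wild type hosts, with a class median of -0.82. Plvap encodes the protein of the diaphragms that span endothelial pores. For Plvap the deficient arrays gave log2 levels of 11.26, 11.47 and 11.33 under smoke and 11.26, 11.33 and 11.22 in air, and the wild type arrays gave 8.73, 8.49 and 8.56 under smoke and 10.15, 10.35 and 10.37 in air. Emcn encodes endomucin, a sialomucin of veins and capillaries. Log2 levels of Emcn were 9.79, 10.04 and 9.83 under smoke and 9.88, 9.88 and 9.88 in air in deficient hosts, against 8.24, 8.23 and 8.03 under smoke and 8.73, 8.78 and 9.03 in air in wild type hosts. For both, deficient smoke and deficient air arrays overlapped, and the wild type smoke arrays were the lowest of the 12. With smoke in wild type hosts Plvap fell by 1.70 ± 0.09, adjusted p = 5.44e-09, and Emcn fell by 0.68 ± 0.09, adjusted p = 0.000101.

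Vwf, which encodes the clotting factor that endothelial cells and platelets store, and Aplnr, which encodes the apelin receptor of sprouting and venous endothelium, moved in opposite directions with smoke in the 2 genotypes. Vwf had log2 levels of 10.57, 10.73 and 10.71 in deficient smoke arrays and 10.28, 10.23 and 10.19 in deficient air arrays, against 8.57, 8.56 and 8.72 in wild type smoke arrays and 9.31, 9.43 and 9.49 in wild type air arrays. For Aplnr the deficient arrays gave log2 levels of 8.94, 9.04 and 9.12 under smoke and 8.49, 8.61 and 8.56 in air, and the wild type arrays gave 7.23, 7.47 and 7.30 under smoke and 8.32, 7.99 and 8.21 in air. In both genes the deficient smoke arrays were the highest of all 12 and the wild type smoke arrays the lowest. Vwf rose by 0.44 ± 0.07, adjusted p = 0.00514, with smoke in deficient hosts and fell by 0.79 ± 0.07, adjusted p = 2.75e-06, in wild type hosts. Aplnr rose by 0.48 ± 0.09, adjusted p = 0.0134, in deficient hosts and fell by 0.84 ± 0.09, adjusted p = 1.31e-05, in wild type hosts. The rise of Aplnr was not called without deficient air replicate 1 or 3 or deficient smoke replicate 2 or 3. Platelet and megakaryocyte genes were measured beside Vwf: the mean log2 level of 8 such genes was 7.76 to 7.82 in deficient smoke arrays and 7.53 to 7.79 in deficient air arrays, and 7.53 to 7.72 in wild type smoke arrays and 7.27 to 7.44 in wild type air arrays. Of these 8 genes, 1 was called higher with smoke in deficient hosts and 3 in wild type hosts, and their part in the level of Vwf was not tested.

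Of the 3 lymphatic genes, Lyve1 and Mmrn1 had the same sign in each comparison, and Prox1 read under 6 in every array. Lyve1 encodes a hyaluronan receptor of lymphatic endothelium that some macrophages also carry. Log2 levels of Lyve1 were 11.37, 11.49 and 11.38 under smoke and 10.70, 10.73 and 10.67 in air in deficient hosts, against 9.46, 9.31 and 9.30 under smoke and 9.72, 9.81 and 9.92 in air in wild type hosts. Mmrn1 encodes multimerin 1, a protein of lymphatic endothelium that platelets also store. Mmrn1 had log2 levels of 7.92, 8.06 and 7.91 in deficient smoke arrays and 7.58, 7.71 and 7.54 in deficient air arrays, against 4.90, 5.08 and 5.19 in wild type smoke arrays and 6.53, 6.40 and 6.77 in wild type air arrays. In both genes the deficient smoke arrays were the highest and did not overlap with the deficient air arrays. Prox1 encodes the transcription factor that specifies lymphatic endothelium. For Prox1 the deficient arrays gave log2 levels of 5.60, 5.73 and 5.78 under smoke and 5.57, 5.58 and 5.53 in air, and the wild type arrays gave 5.26, 5.81 and 5.94 under smoke and 5.45, 5.66 and 5.24 in air. No Prox1 reading reached 6, the intensity used as a filter, and its genotypes overlapped in both exposures.

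Lyve1 had the largest rise of the 34 genes with smoke in deficient hosts, 1.64-fold (log2 difference 0.71 ± 0.07, adjusted p = 9.48e-05), and it fell by 0.46 ± 0.07, adjusted p = 0.000307, in wild type hosts. Mmrn1 differed by 0.35 with smoke in deficient hosts (95% interval 0.13 to 0.57, adjusted p = 0.116), and was called higher with the 6 deficient arrays alone (adjusted p = 0.0162). It was lower with smoke in wild type hosts, with a fitted log2 difference of -1.51 ± 0.10, adjusted p = 9.25e-08. All 3 wild type smoke readings of Mmrn1 were under 6, so that a level above background is not shown there. No fold of Mmrn1 is printed against them, although Mmrn1 is included in the counts of 2-fold and 4-fold genes above. Under smoke, deficient hosts were 4.16-fold above wild type hosts for Lyve1. Prox1 differed with smoke by 0.22 in wild type hosts (95% interval -0.09 to 0.54), and it was called higher once replicate 1 of wild type smoke was left out, at 0.43 (adjusted p = 0.00602). Macrophage genes were measured beside Lyve1: the mean of 15 was 8.51 to 8.61 in deficient smoke arrays, 8.63 to 8.68 in deficient air arrays, 8.95 to 9.10 in wild type smoke arrays and 8.21 to 8.34 in wild type air arrays. No macrophage gene was called higher with smoke in deficient hosts and 2 were called lower, and 11 of 15 were called higher with smoke in wild type hosts. Their part in the level of Lyve1 was not tested.

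Set side by side, the capillary, arterial and lymphatic classes had median smoke differences of -0.19, 0.05 and 0.35 in deficient hosts and of -2.78, -0.56 and -0.46 in wild type hosts. Their median genotype differences were 1.24, 0.45 and 0.88 in air and 3.62, 1.31 and 2.06 under smoke. For the difference of the smoke effects the medians were 2.63, 0.71 and 1.18, with 5 of 5, 3 of 4 and 2 of 3 genes called. The order of these classes was not tested. Prox1 read under 6 on the log2 scale in every array, and Bmx and Mmrn1 did so in some. With 3 genes, the lymphatic median is the value of a single gene. In wild type hosts that gene was Lyve1 at -0.46, beside Mmrn1 at -1.51 and Prox1 at 0.22.

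Other endothelial genes, a list of 59 measured genes outside the 34, showed the same direction in wild type hosts with more exceptions. There 38 fell and 8 rose with smoke, with a median of -0.49, where 14% of all genes fell and 15% rose. The genes that rose are described singly and not as a trait of the list. The genes with the smallest p were Tek, the angiopoietin receptor (-2.62 ± 0.07), Slco2a1, a prostaglandin transporter (-2.78 ± 0.08), Thbd, the anticoagulant thrombomodulin (-2.38 ± 0.08), Bmp6, a BMP ligand (-1.94 ± 0.07), Cyyr1 (-2.25 ± 0.08) and Kdr, the main VEGF receptor (-1.93 ± 0.08), all as log2 differences with SE. Of the 8 that rose, the 4 with the smallest p were Angpt2, Stab1, Apln and Esm1, and the others, named after their values were seen, were Nrp2, Vcam1, Procr and Ackr3. Angpt2, the Tek antagonist released by activated endothelium, rose by 1.16 ± 0.07, adjusted p = 2.23e-08. Esm1, a proteoglycan of tip cells, rose by 0.95 ± 0.11, adjusted p = 1.49e-05. Stab1, a scavenger receptor that macrophages share, rose by 0.84 ± 0.06, adjusted p = 1.59e-07, and Apln, the ligand of Aplnr, rose by 0.78 ± 0.08, adjusted p = 9.34e-06.

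With smoke in deficient hosts 4 of these 59 genes rose and 4 fell, with a median of -0.06, where 0.692% of all genes rose and 1.72% fell. Esm1 rose there by 1.61 ± 0.11, adjusted p = 2.04e-06. Angpt2, Stab1 and Apln were not called, at 0.11, 0.03 and 0.05. The difference of the smoke effects was lower in deficient hosts for Angpt2 (-1.05 ± 0.10, adjusted p = 3.86e-06), Stab1 (-0.81 ± 0.08, adjusted p = 1.38e-05) and Apln (-0.73 ± 0.12, adjusted p = 0.000656), and higher for Esm1 (0.66 ± 0.15, adjusted p = 0.00828). Between genotypes in air, 49 of the 59 genes were higher in deficient hosts and 2 were lower, with a median of 0.80. Of all genes, 20.5% were higher there and 18% were lower. Under smoke 48 were higher and 6 were lower, with a median of 1.24, where 22.7% of all genes were higher and 37% were lower. Over the difference of the smoke effects 35 of the 59 were called upward and 8 downward, against 8.89% and 5.7% of all genes.

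Genes of other lung cells moved alongside the endothelial genes. The genes named for each list are those with the smallest p, not the largest differences. With smoke in wild type hosts all 15 alveolar type I genes fell, with a median of -1.90, among them Ager, Clic5 and Sec14l3, which is also on the airway list, at -2.95, -3.25 and -4.16. All 15 alveolar type II genes fell, with a median of -2.13, among them the surfactant genes Sftpa1 and Sftpb at -2.49 and -2.70 and Chil1 at -2.57. Of the 12 resident lung fibroblast genes 10 fell, among them Npnt, Inmt and Itga8 at -3.48, -3.95 and -2.89. Among 17 airway genes 12 fell, among them Cyp2f2, Scgb3a2 and Scgb1a1 at -5.35, -3.48 and -4.46. Of 15 mural cell genes 9 fell and 2 rose, among them Postn, Myh11 and Des at -2.94, -1.77 and -1.46.

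Blood and tumour lists moved differently. Of 15 macrophage genes 11 rose with smoke in wild type hosts and none fell, among them Mrc1, Csf1r and C1qc at 1.11, 0.65 and 1.11. Of 10 pan-leukocyte genes 6 rose and 1 fell, among them Lcp2, Cytip and Cd53 at 1.00, -0.66 and 0.50. Of 19 mitotic genes 8 rose, among them Cdc20, Cenpf and Ndc80 at 0.50, 0.46 and 0.41. Of 8 platelet genes 3 rose, Pf4, Itgb3 and Ppbp, at 1.30, 0.55 and 0.44, and of 6 erythroid genes Slc4a1 and Epor rose by 0.41 and 0.27 while Alas2 fell by 0.86.

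In deficient hosts the alveolar lists had medians of -0.03 and -0.00 with smoke, with 0 of 15 type I genes and 1 of 15 type II genes called. The mean over 6 erythroid genes was 7.25 to 7.30 in deficient smoke arrays and 6.78 to 6.84 in deficient air arrays, and 4 of 10 pan-leukocyte genes were called lower. In air, 15 of 15 type I and 15 of 15 type II genes were higher in deficient than in wild type hosts, with medians of 0.85 and 0.93, and all 19 mitotic genes were lower, with a median of -1.11. Under smoke the same lists had medians of 2.77, 3.13 and -1.46. The part that the amount of lung tissue, tumour or blood in each sample had in the endothelial values was not tested.

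**Figure D4:**
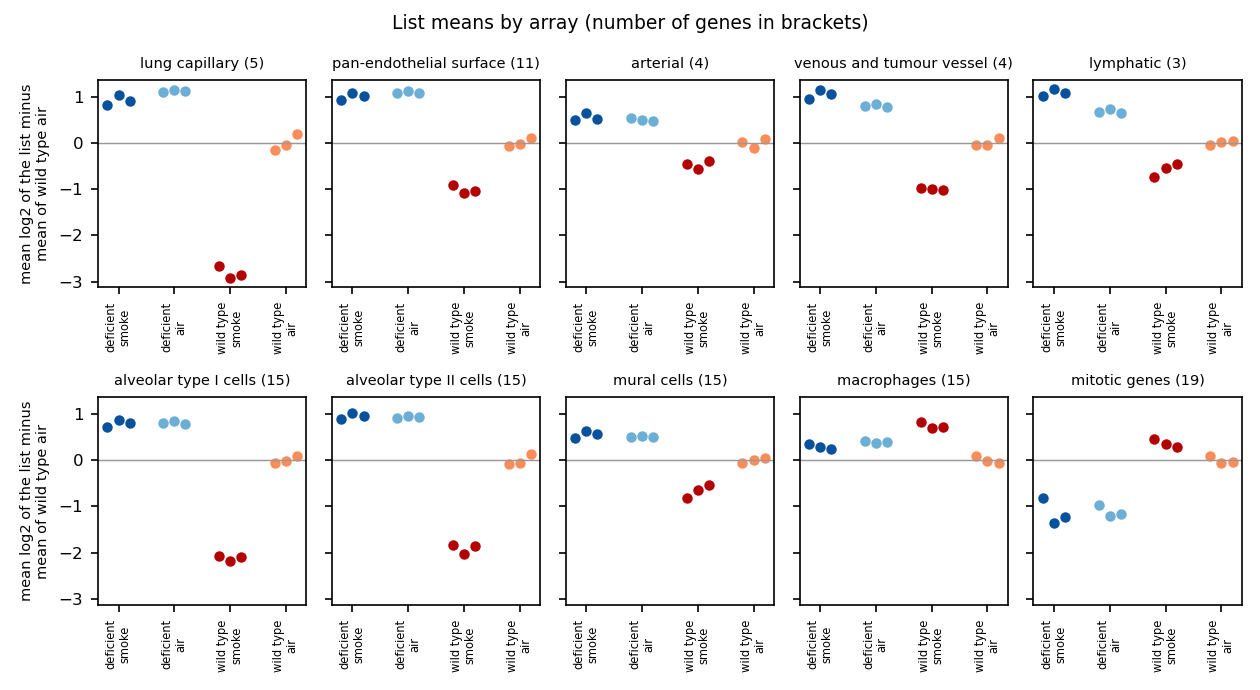
Mean log2 level of 10 gene lists in single arrays (points), as the difference from the mean of the wild type air arrays, by group, with deficient smoke first, then deficient air, wild type smoke and wild type air. The alveolar, mural and endothelial lists are lowest in the wild type smoke arrays, whereas the macrophage list is highest there and the mitotic list is lower in deficient than in wild type arrays.

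Single arrays differed within groups. Wild type air replicate 3 held the highest of its group's readings for 26 of the 34 genes, or 76.5%, against 6185 of the 19937 genes in all. Among deficient smoke arrays, replicate 2 was the highest for 28 genes, or 82.4%, against 29.4% of all genes. Replicate 1 of that group was the lowest for 31 genes, or 91.2%, against 37.1% of all genes. The 29 genes lower with smoke in wild type hosts stayed called without wild type air replicate 3. The deficient smoke arrays do not enter that difference, so leaving them out is no check of it. With smoke in deficient hosts, Icam2 was no longer called without replicate 1 of deficient smoke. Without replicate 2 of that group, Icam2, Ptprb and Aplnr were no longer called.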

How the data were processed

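The deposited table holds log2 intensities of 12 Affymetrix arrays, 3 per group, which the authors made in Affymetrix Expression Console with RMA (background correction, quantile normalization and probe summary), per the submitters' processing notes. RNA was extracted with an RNeasy kit, per the labels' protocols. The log2 values were used as deposited. Of 34760 probe sets, 21640 named 1 gene in the platform annotation, 1321 named several, and 11799 were not listed. Each gene took its one-gene probe set with the highest mean over the arrays, which left 19937 genes. All 34 members were measured, Ramp2 also within 1 probe set that names several genes.

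All 4 groups were fitted together with limma 3.58.1 (R 4.3.3; 8 residual and 4.83 prior degrees of freedom), with p-values adjusted over all genes (Benjamini-Hochberg) and 0.05 as the limit. The number of arrays limits the precision. The fit was tested on simulated data for smoke in wild type hosts, with 19937 genes. It recovered 100 of 100 genes shifted by 1 and 63 of 100 shifted by 0.5 on the log2 scale. It called 6 of 19737 unshifted genes. Noise was drawn separately for each gene and 200 genes were shifted, whereas 29% of all genes were called in the real arrays. These rates therefore do not carry over to the real arrays.

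All members are named. Array values are given for up to 4 members of each class with the smallest p for smoke in wild type hosts and for every capillary, arterial and lymphatic member. Other lists are represented by up to 6 or 3 genes with the smallest p, plus up to 4 other endothelial genes called in the opposite direction. The members and lists were chosen with earlier results of these data known. The 18 alternatives were averaged one-gene probe sets (each member has 1, so its difference cannot move), quantile normalization, median centring, an intensity filter (3 or more arrays reading 6 or higher), the 6 arrays of a comparison alone (not for the difference, which has 17), a block for the replicate number, and leaving out each array. Listed genes without a one-gene probe set were not used here. Figures were drawn with matplotlib 3.10.9.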

Additional observations from a re-analysis of the deposited data

Results flagged for a closer look

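For 29 of the 34 endothelial genes the smoke effect differed between deficient and wild type hosts in a test of that difference, which is what put them here. The values are the smoke effect in deficient hosts minus that in wild type hosts, on the log2 scale. Among the capillary genes it was 4.06 for Tmem100, 3.57 for Car4, 2.63 for Calcrl, 1.58 for Ramp2 and 1.23 for Ednrb. Among the pan-endothelial genes it was 2.30 for Clec14a, 2.15 for Ptprb, 1.42 for Cldn5, 1.00 for Egfl7 and 0.83 for Icam2. It was 0.71 for Cdh5, 0.67 for Esam, 0.65 for S1pr1 and 0.62 for Pecam1. The TGF-beta family receptors gave 1.63 for Acvrl1 and 0.84 for Eng. The transcription factors gave 0.94 for Erg, 0.84 for Sox7, 0.58 for Sox18 and 0.52 for Sox17. The arterial genes gave 0.92 for Gja4, 0.79 for Gja5 and 0.62 for Bmx. The venous and tumour vessel genes gave 1.78 for Plvap, 1.32 for Aplnr, 1.23 for Vwf and 0.68 for Emcn, and the lymphatic genes gave 1.86 for Mmrn1 and 1.18 for Lyve1. All of these are positive, as the smoke effect was less negative in deficient hosts or had the opposite sign there.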

How the results depend on the processing

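The count of endothelial genes called lay within 1.5 times the reported one under the normalization, filter and block alternatives in all comparisons. With smoke in deficient hosts it was 8 with the 6 arrays alone, against 5 as reported, and 2 to 7 when 1 array was left out. Leaving out 1 array gave 29 to 33 genes with smoke in wild type hosts, 30 to 32 between genotypes in air, 31 to 32 between genotypes under smoke and 29 to 30 for the difference of the smoke effects. No called gene changed its sign. Some alternatives cannot move a member's log2 difference. They are averaged probe sets, the replicate block, the 6 arrays alone and leaving out an array from outside the comparison. Of the genes called, 29 of 29, 2 of 5, 30 of 31, 31 of 31 and 29 of 29 stayed called in every alternative, in the order smoke in wild type hosts, smoke in deficient hosts, genotype in air, genotype under smoke and difference. Bmx passed the intensity filter only through its 6 deficient arrays, and no wild type smoke array of Mmrn1 reached it. That setting is therefore no check of the calls of these genes. Over all genes, 5778 were called with smoke in wild type hosts as deposited, 9852 after median centring, 3454 with the 6 arrays alone, 3695 without wild type air replicate 3 and 8824 without wild type smoke replicate 1. With smoke in deficient hosts 481 were called, against 1018 with the 6 arrays alone and 261 to 320 without any one of the 6 deficient arrays. For the difference 2909 were called, against 4969 without wild type smoke replicate 1.

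No pairing of the samples by replicate number was assumed. Deviations from the group means correlated at -0.363 to 0.365 over 18 same-numbered pairs of arrays, 7 of them over 0.1. In every other group at once, 2 of 12 arrays correlated best with the array of their own number. A fit with the number as a block called 29, 5, 31, 31 and 29 of the 34 genes in the same order of comparisons. Prox1 never reached the intensity filter, which 33 of the 34 genes passed.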

Other observations

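The shear-responsive transcription factors Klf2 and Klf4, which endothelial cells express under steady flow, were picked from the list of other endothelial genes after their values were seen. With smoke in deficient hosts Klf4 averaged 8.93 ± 0.11 under smoke and 9.79 ± 0.02 in air, and Klf2 averaged 10.18 ± 0.15 under smoke and 10.66 ± 0.02 in air (log2, SD, n = 3 each). The differences were -0.87 ± 0.08, adjusted p = 7.76e-05, for Klf4, and -0.48 ± 0.10, adjusted p = 0.0236, for Klf2. In wild type hosts the smoke differences were -0.30 ± 0.08, adjusted p = 0.018, for Klf4, and -0.47 ± 0.10, adjusted p = 0.00398, for Klf2. Klf2 and Klf4 are also expressed by leukocytes, whose list mean was lower in the deficient smoke arrays than in the deficient air arrays. In wild type hosts, where both genes also fell, that list mean was 8.82 to 8.93 under smoke and 8.53 to 8.84 in air. The part of those cells was not tested.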
